A study of Mus musculus with 6 samples.

Results

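The genes described here are 34 interferon-stimulated genes of the mouse, followed in maps of open chromatin from the thymus. They were chosen by name and matched by symbol to the protein-coding genes of the build GRCm38, and all 34 matched, of 21631 protein-coding genes on chromosomes 1 to 19 and X. For each gene and library, a peak summit within 1 kb of either annotated gene end was looked for, and regions of open chromatin were collected inside the gene and in the 20 kb around it. The question put by the series was which regions differ in openness between thymus with dimeric p53 and thymus without p53. ATAC-seq, which sequences DNA that a transposase can reach, was run on 3 libraries from p53 AD/- mice and 3 from p53 -/- mice, called null below. The AD/- mice carry the AD allele, which encodes the dimeric p53, over a null allele, so both groups lack wild-type p53, and in both the alteration is in the germline. All libraries came from mice aged 4 weeks with a background of 50% BALB/C and 50% C57BL6. The labels do not state that each library came from its own mouse, so a p-value here measures only the spread between libraries, which may be technical.

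Type I interferon binds the receptor pair IFNAR1 and IFNAR2, whose kinases JAK1 and TYK2 phosphorylate STAT2, among other factors. STAT2 joins IRF9 in a complex that binds the interferon-stimulated response element in the promoters of its target genes. Interferon gamma acts instead through a different element, the gamma-activated site. The proteins made from the target genes sense viral nucleic acid, block translation, degrade RNA or hold virus particles at the membrane, and some feed back on the signal itself.

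The response element is what the promoters of these genes are known for, and 7 promoters are printed to show where it lies beside the measured summits. Each run covers 170 bases before to 30 bases after the annotated start site, 5′ to 3′ on the strand of the gene, from RefSeq on GRCm38.p6. Capitals mark each match to the element's core, searched as GAAA, any 2 bases and GAAA on either strand with overlapping matches kept, so that a match on the opposite strand reads TTTC, 2 bases and TTTC. The stretches are chr19:34640719-34640918 on the plus strand for Ifit1 and chr12:26456423-26456622 on the minus strand for Rsad2. Those of Trim21 and Eif2ak2 are chr7:102565453-102565652 and chr17:78882543-78882742, both on the minus strand. These 4 genes are examples in which a summit lay near the match in all 6 libraries.
Ifit1: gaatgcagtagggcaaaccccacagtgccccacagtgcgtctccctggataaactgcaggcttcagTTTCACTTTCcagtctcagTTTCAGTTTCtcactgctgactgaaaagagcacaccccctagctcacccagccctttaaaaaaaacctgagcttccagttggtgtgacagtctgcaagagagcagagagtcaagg
Rsad2: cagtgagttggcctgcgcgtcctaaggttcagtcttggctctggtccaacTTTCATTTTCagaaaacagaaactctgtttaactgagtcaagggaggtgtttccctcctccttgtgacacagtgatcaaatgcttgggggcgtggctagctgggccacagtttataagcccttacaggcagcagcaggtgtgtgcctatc
Trim21: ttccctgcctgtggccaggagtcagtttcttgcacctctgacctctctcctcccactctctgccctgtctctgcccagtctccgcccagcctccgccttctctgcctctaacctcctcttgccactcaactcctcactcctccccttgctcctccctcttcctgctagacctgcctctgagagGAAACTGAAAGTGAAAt
Eif2ak2: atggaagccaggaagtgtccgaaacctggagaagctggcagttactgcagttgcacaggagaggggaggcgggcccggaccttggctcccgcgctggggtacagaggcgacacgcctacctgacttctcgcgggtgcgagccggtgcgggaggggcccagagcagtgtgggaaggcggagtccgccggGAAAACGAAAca

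The other 3 promoters hold matches but had no summit within 1 kb of the start site in any library. They are Isg15 at chr4:156200789-156200988 on the minus strand, Ifit3 at chr19:34583359-34583558 on the plus strand and Oas1a at chr5:120907496-120907695 on the minus strand.
Isg15: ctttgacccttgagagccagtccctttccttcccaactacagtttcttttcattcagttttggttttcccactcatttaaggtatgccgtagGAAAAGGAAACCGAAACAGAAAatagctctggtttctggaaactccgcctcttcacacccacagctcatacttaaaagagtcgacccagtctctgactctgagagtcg
Ifit3: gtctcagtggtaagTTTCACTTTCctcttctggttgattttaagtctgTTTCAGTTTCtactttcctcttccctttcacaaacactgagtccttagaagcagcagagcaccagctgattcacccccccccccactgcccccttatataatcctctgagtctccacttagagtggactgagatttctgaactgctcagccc
Oas1a: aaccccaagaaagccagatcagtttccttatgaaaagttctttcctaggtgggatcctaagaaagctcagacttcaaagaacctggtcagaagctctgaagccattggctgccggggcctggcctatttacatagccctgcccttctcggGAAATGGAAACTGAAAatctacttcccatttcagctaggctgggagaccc

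The Ifit1 promoter held matches at -104 to -95 and at -85 to -76, counted from the start site, and the nearest summit lay 8.5 to 59.5 bp from the centre of either match. In Rsad2 the match was at -120 to -111 and the summit lay 61.5 to 112.5 bp from its centre. Trim21 and Eif2ak2 carried theirs just downstream of the start site. The Trim21 matches at 13 to 22 and 19 to 28 had a summit 18.5 to 61.5 bp away, and the Eif2ak2 match at 18 to 27 had one 23.5 to 74.5 bp away. Isg15 carried 3 overlapping matches between -78 and -57, with the nearest summit to the start site 2264.5 to 2314.5 bp from their centres. Ifit3 carried matches at -156 to -147 and -122 to -113, and Oas1a at -20 to -11 and -14 to -5. Distances differed among the other members with a match. The nearest summit to the start site lay 10.5 to 31.5 bp from the match centre in Gbp2 and 45.5 to 118.5 bp in Ifih1. It lay 149.5 to 157.5 bp away in Bst2, 661.5 to 709.5 bp in Ddx58 and 739.5 to 749.5 bp in Gbp3. In Oas3 and Ifitm3 it ranged from 19.5 to 2005.5 bp and from 38.5 to 1621.5 bp between libraries. A match is a run of letters and does not show that a factor was bound.

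**Figure D1:**
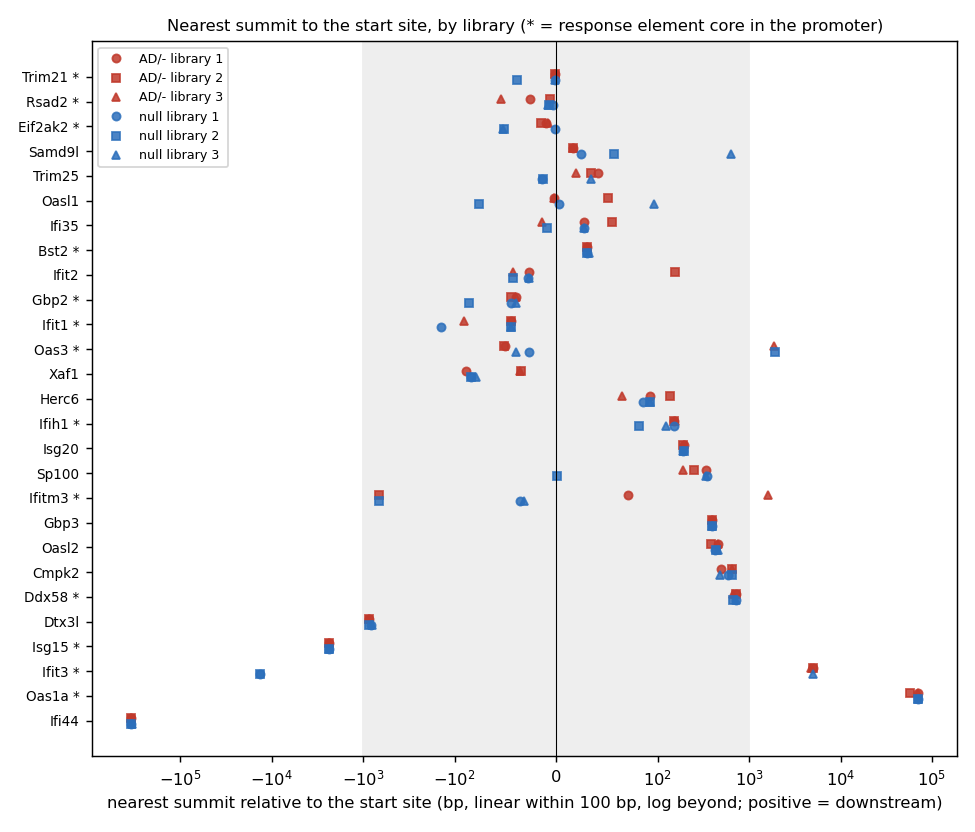
Distance in bp from the start site to the nearest summit for the 27 members with a promoter sequence, 1 point per library, red for AD/- and blue for null, with positive values downstream, a scale that is linear within 100 bp and logarithmic beyond, the 1 kb window shaded, and a star where the promoter holds a response element core. Most members cluster inside the shaded window in all 6 libraries, while Isg15, Ifit3, Oas1a and Ifi44 lie outside it in all 6.

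The 34 listed interferon-stimulated genes were open at a gene end more often than protein-coding genes at large, in both genotypes. This holds for the list, which was chosen with earlier results of these data known. Of 44 further genes of related families, described at the end, 36.4% had a gene-end summit in all 6 libraries. In AD/- libraries 1, 2 and 3, 29, 28 and 28 of the 34 members carried a gene-end summit. In null libraries 1, 2 and 3 the counts were 27, 27 and 28. The AD/- mean was 28.3 ± 0.577 and the null mean 27.3 ± 0.577 (SD, n = 3 each), or 83.3% ± 1.70 and 80.4% ± 1.70 of the members, beside 55.8% ± 1.79 and 56.4% ± 0.1 of all protein-coding genes. The counts of the groups touch at 28, so the groups overlap. Of the members, 26 (76.5%) had a gene-end summit in all 6 libraries, 5 (14.7%) in none and 3 (8.82%) in some, beside 52.6%, 40.7% and 6.70% of all genes. No member was open at a gene end in all 3 libraries of either genotype while without a summit in all 3 of the other, a state found for 0.0185% of all genes in favour of AD/- and 0.0324% in favour of null.

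The score of a summit was used only as its percentile, its rank among the summits of its own library with 100 at the top. A percentile is thus a rank and not a level, and a summit that is shared by all libraries ranks lower in a shorter list. The lists held 54618, 60160 and 44496 summits in AD/- libraries 1, 2 and 3 and 54152, 55653 and 58019 in null libraries 1, 2 and 3, so AD/- library 3 was the shortest. Read depth is unknown. Although members were often open, their summits ranked low: the median over the 26 members found in all 6 libraries was 72.9, beside 89.3 for the 11385 genes of that kind. By library the members' median ran from 65.3 in AD/- library 3 to 75.7 in AD/- library 2, and that of all genes from 86.9 to 90.3 in the same 2 libraries. In bulk tissue, an opening confined to few cells and a weak opening in many cells cannot be told apart.

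**Figure D2:**
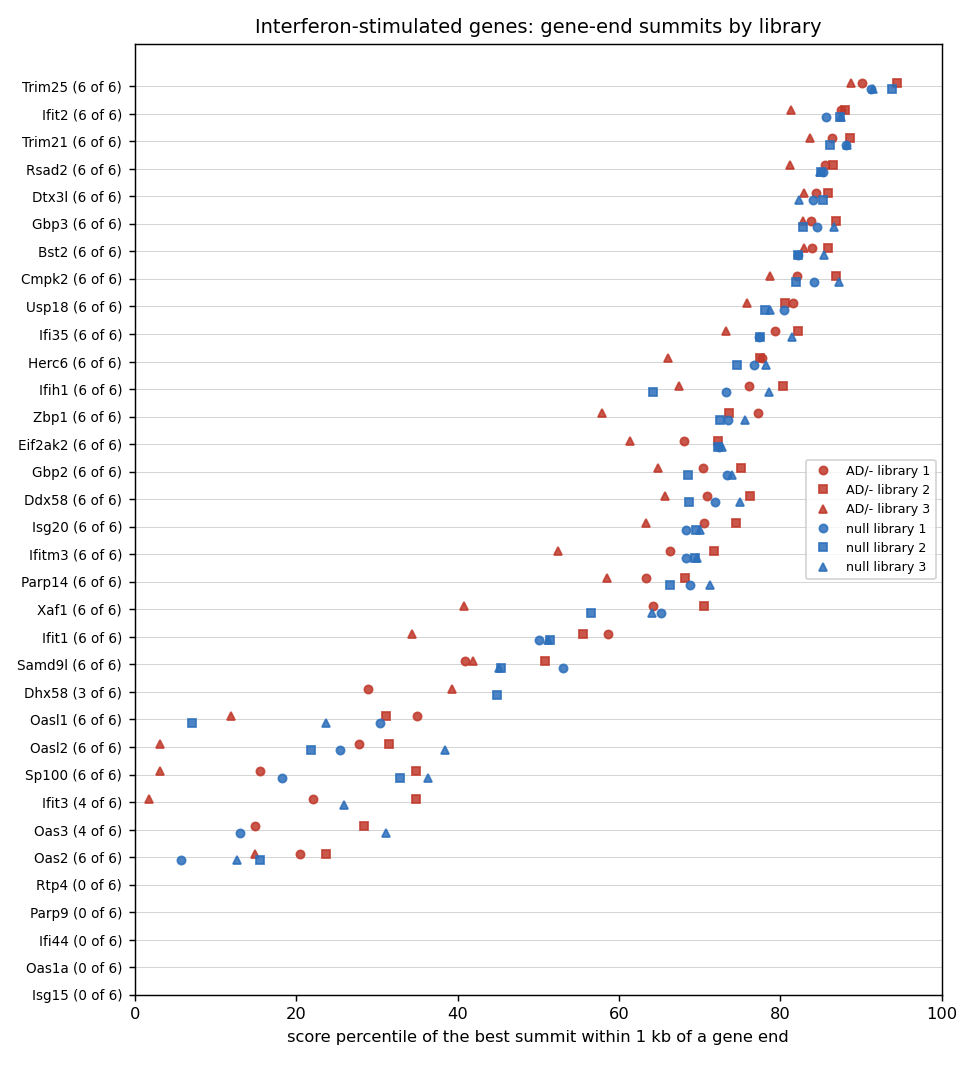
Score percentile of the best summit within 1 kb of a gene end, for each of the 34 members, with 1 point per library (red for AD/-, blue for null) and the number of libraries with a summit beside the symbol. Red and blue points overlap in nearly every row, AD/- library 3 is often the leftmost, and the members span from Trim25 near 90 to Oas2 below 25.

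The IFIT proteins bind foreign RNA and block its translation. The 3 member genes lie in a cluster on chromosome 19, with related genes between Ifit3 and Ifit1. Ifit2 (34550550 to 34576534) was the most open of the 3, with percentiles of 87.5, 88.0 and 81.3 in AD/- libraries 1, 2 and 3 and 85.6, 87.3 and 87.4 in the null libraries. Ifit1 (34640889 to 34650009) stood at 58.6, 55.5 and 34.3 in AD/- and 50.1, 51.5 and 51.2 in null. Both ranges of AD/- contain those of null, because AD/- libraries 1 and 2 lay above and library 3 below. Ifit3 (34583119 to 34588982) was listed at 22.1, 34.8 and 1.72 in AD/- and at 25.9 in null library 3, with no summit in null libraries 1 and 2. Its summits lay 472 to 704 bp from the end opposite the start site, so none marked its promoter. Of the 50-base stretches of the Ifit3 promoter window, 47.8% also occur in the promoter window of its paralog Ifit3b. How the authors handled reads that map to several places is not stated in the labels.

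The oligoadenylate synthetases make the short oligoadenylates that turn on the nuclease RNase L, and their genes had low-ranking gene-end summits or none. Oas2 (chromosome 5, 120730333 to 120749886) had the lowest median percentile of the members found in all 6 libraries, with 20.5, 23.7 and 14.8 in AD/- and 5.75, 15.5 and 12.6 in null. The groups overlap, since AD/- library 3 lay below null library 2. Oasl1 and Oasl2 encode relatives of the synthetases and were also low. Oasl1 stood at 34.9, 31.2 and 11.9 in AD/- and 30.3, 7.06 and 23.7 in null, and Oasl2 at 27.8, 31.5 and 3.16 in AD/- and 25.5, 21.9 and 38.5 in null. Each spread widely within a genotype. A stronger region lay 1066 bp outside Oasl1, just past the limit of 1 kb. It was present in all 6 libraries, at 89.0, 91.1 and 85.4 in AD/- and 87.8, 86.3 and 91.0 in null.

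Oas3 (chromosome 5, 120753098 to 120777684) had a gene-end summit in AD/- libraries 1 and 2, at 14.9 and 28.4, and in null libraries 1 and 3, at 13.1 and 31.1. The limit of 1 kb hides a much stronger opening there. A region 1918 bp inside the gene was present in all 6 libraries, at percentiles of 87.6, 89.0 and 80.1 in AD/- and 85.1, 86.3 and 88.4 in null. Oas1a (120896256 to 120907544) had neither a gene-end summit nor a region within 20 kb, and its nearest summit lay 46434 to 59303 bp from a gene end. Of its promoter's stretches of 50 bases, 9.56% recur in the promoter window of Oas1g.

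Cytosolic sensors of viral nucleic acid were open, at middle ranks. Ifih1, which encodes MDA5, a sensor of long double-stranded RNA, ranged from 64.1 to 80.3 over the 6 libraries. Ddx58, which encodes RIG-I, a sensor of RNA ends, ranged from 65.6 to 76.3, with its summit 668 to 716 bp from the gene end. Zbp1, a sensor of left-handed nucleic acid that can start cell death, ranged from 57.9 to 77.2. Dhx58 (chromosome 11, 100694884 to 100704271) encodes LGP2, a regulator of both RNA sensors, and had gene-end summits at 28.9 and 39.3 in AD/- libraries 1 and 3 and at 44.9 in null library 2. The summit of AD/- library 1 lay at the end with the lower coordinate, and those of AD/- library 3 and null library 2 at the opposite end. Null library 2 also had a summit at the lower end, at 40.3. A region 1575 bp inside Dhx58 was present in all 6 libraries, at 49.0 to 63.2.

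Eif2ak2 (chromosome 17, 78850504 to 78882572) encodes PKR, a kinase that stops translation when it binds double-stranded RNA. Its gene-end summit stood at 68.1, 72.2 and 61.4 in AD/- and at 72.4, 72.3 and 72.8 in null. It was the only member whose percentiles did not overlap between the genotypes, and AD/- library 2 and null library 2 lay within 0.1 of each other. The means were 67.2 ± 5.46 and 72.5 ± 0.261 (SD, n = 3 each), a difference of -5.24 percentile points, with an exact two-sided permutation p of 0.1, the smallest that 3 against 3 libraries allow, and a Benjamini-Hochberg adjusted p of 1 over 11385 genes. Without AD/- library 3 the difference was -2.33. When the log2 of the score over the library's median score was used in place of the percentile, the difference was -0.41 and the genotypes overlapped, which ends the separation. A second region within 20 kb of this gene, 15022 bp outside its annotated end, was among the highest-ranking around any member. It stood at 98.4 to 99.3 in all 6 libraries.

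ISG15 is a ubiquitin-like protein, and several members make, remove or resemble its pathway. Isg15 (chromosome 4, 156199424 to 156200818) had no gene-end summit in any library, yet it was flanked by strong regions in all 6. Its nearest summits lay 1761 to 1767 bp from the end opposite the start site, at percentiles of 86.8, 88.5 and 83.9 in AD/- and 86.6, 87.2 and 87.9 in null. On the start-site side a region 2357 bp away stood at 79.2 to 87.2. The distances varied by few bases between libraries, which places both regions beyond the limit in each.

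Usp18, which removes ISG15 from proteins and damps the interferon receptor, ranged from 75.9 to 81.6 and was surrounded by 7 regions found in all 6 libraries. Herc6, the mouse ligase that attaches ISG15, ranged from 66.0 to 78.2. Trim25, a ubiquitin ligase that acts with RIG-I, had the highest median percentile of all members, at 91.4. It stood at 90.1, 94.4 and 88.8 in AD/- and 91.3, 93.8 and 91.5 in null. Trim21, a cytosolic antibody receptor and ubiquitin ligase, stood at 86.4, 88.7 and 83.6 in AD/- and 88.2, 86.1 and 88.3 in null. In both TRIM genes the range of null lay inside that of AD/-.

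Parp9 and Dtx3l encode partners in a complex with ubiquitin ligase activity, and their genes overlap at their ends on chromosome 16. They shared a summit that lay 798 to 861 bp from the end of Dtx3l and 1355 to 1418 bp from the end of Parp9, so that Dtx3l counted as open in all 6 libraries and Parp9 in none. The shared summit stood at 84.4, 85.9 and 83.0 in AD/- and 84.0, 85.2 and 82.3 in null. The difference in state between these 2 genes therefore reflects only the limit of 1 kb. Parp14, an ADP-ribosyltransferase of the same gene cluster, ranged from 58.5 to 71.2.

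Of the direct antiviral effectors, Rsad2 (chromosome 12, 26442743 to 26456452), which encodes viperin, stood at 85.5, 86.6 and 81.2 in AD/- and 85.3, 85.0 and 85.0 in null. Its neighbour Cmpk2, a mitochondrial nucleotide kinase, ranged from 78.7 to 87.2, with its summit 584 to 742 bp from the gene end. Bst2, which encodes tetherin and holds budding virus at the cell surface, ranged from 82.2 to 85.8, and Isg20, an RNA exonuclease, from 63.4 to 74.5. Samd9l, whose protein restrains poxviruses, ranged from 40.9 to 53.1, and 28.7% of the 50-base stretches of its promoter window recur in that of Gm20559.

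Ifitm3, whose protein blocks entry of enveloped viruses, ranged from 52.5 to 71.7. Those values belong to the end of this short gene opposite its start site. Within 1 kb of the start site it had a weaker summit in 5 of 6 libraries, at percentiles of 7.42 to 20.1. The guanylate-binding proteins attack the vacuoles of intracellular pathogens, and Gbp2 ranged from 64.9 to 75.1 and Gbp3 from 82.8 to 86.9.

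The remaining members have less defined roles in the response. Ifi35 ranged from 73.3 to 82.2 and Xaf1, an apoptosis-promoting protein, from 40.8 to 70.5. Sp100, a component of nuclear bodies, stood at 15.6, 34.8 and 3.16 in AD/- and 18.2, 32.8 and 36.3 in null. It was the second least open of the members found in all 6 libraries, and 61.0% of the 50-base stretches of its promoter window recur in that of Gm7609. Ifi44 (chromosome 3, 151730922 to 151749910) had no region within 20 kb, and its nearest summit lay 339489 to 341859 bp from a gene end. Of the 50-base stretches of the Ifi44 promoter window, 9.96% recur in promoter windows of other genes. Rtp4 (chromosome 16, 23520219 to 23614222), a chaperone of receptors, had no gene-end summit. Its gene model is 94004 bp long, and a region 4318 bp inside it was present in all 6 libraries at 31.6 to 61.9.

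Between genotypes, most members ranked slightly lower in AD/-, as did most genes. Of the 26 members found in all 6 libraries, 7 had a higher and 19 a lower mean percentile in AD/-, with a median difference of -1.23 percentile points, beside -0.60 over all 11385 genes, of which 3205 were higher and 8180 lower. AD/- library 3 held the lowest percentile of 20 of the 26 members (76.9%) and of 65.0% of all genes. AD/- library 2 held the highest of 15 members (57.7%) and of 36.0% of all genes. For the members, the extremes on both sides thus came mainly from AD/- libraries.

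No member had all its AD/- percentiles above all its null percentiles, beside 1.01% of all genes. In the opposite direction 1 member, Eif2ak2, was separated (3.85%), beside 5.31% of all genes. A single member makes 3.85%, so neither count can be told apart from the share over all genes. Across all 11385 genes no adjusted p of a member was below 1 (exact two-sided permutation test with 20 relabellings, Benjamini-Hochberg adjustment).

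The counts moved with the AD/- libraries that entered. Without AD/- library 3, the shortest list, Eif2ak2 stayed separated with null higher, and 7 members ranked higher in both remaining AD/- libraries than in every null library, namely Rsad2, Ifit2, Ifit1, Oasl1, Oas2, Usp18 and Isg20. That is 26.9% of the 26 members, beside 10.1% of all genes in the same setting, and the median difference of the members turned to 1.05, beside 0.23 for all genes. The differences of means ran from 0.93 for Rsad2 and 0.97 for Ifit2 to 10.8 for Oas2 and 12.7 for Oasl1. For Isg20 the value of null library 1 came from a different region than those of the other libraries. Over all 6 libraries that region had means of 62.4 in AD/- and 67.2 in null, and the genotypes overlapped there. Without AD/- library 2, none was higher in AD/- and 6 were higher in null, namely Sp100, Trim25, Parp14, Eif2ak2, Samd9l and Ifitm3 (23.1%, beside 22.4% of all genes). With each list shortened to its 44492 best summits, 23 members remained testable. Isg20 was then higher in AD/- and Eif2ak2 in null, each 4.35% of the members, beside 4.31% and 3.87% of all genes, and the median difference was 0.18, beside 0.03 for all genes. The part of list length in these values was not tested further.

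**Figure D3:**
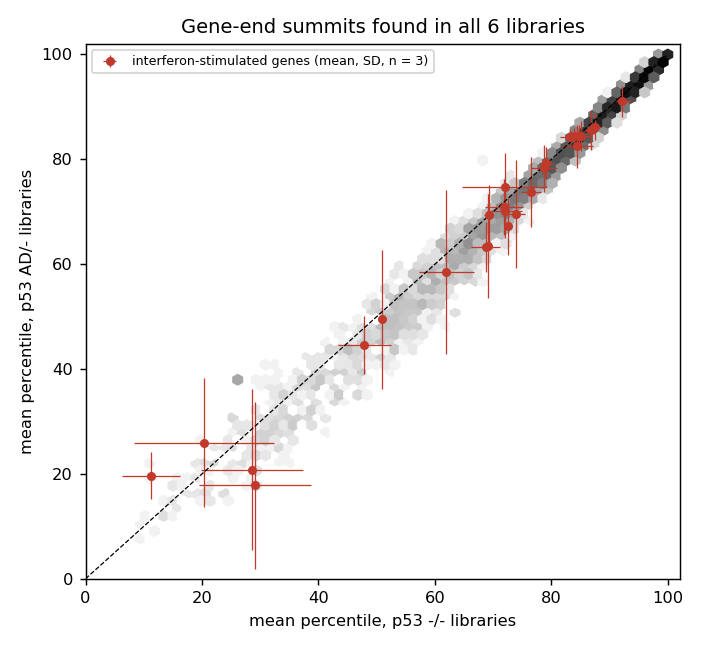
Mean gene-end percentile in AD/- (y) against null (x) for genes with a summit in all 6 libraries, with all 11385 genes as grey hexagons, darker for more genes, and the 26 interferon-stimulated genes as red points with SD bars (n = 3 per genotype) and a dashed line of equality. The members follow the cloud of all genes and lie mostly below its dense upper end, which reflects their median of 72.9 beside 89.3.

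Beyond the gene ends, 151 regions lay inside the members or within 20 kb of them, of 73702 in all, and 13 of them were shared by neighbouring members. Regions seen in all 6 libraries made up 86 of them (56.95%), and 13 (8.61%) were seen in a single library, beside 52.1% and 16.4% of all regions. The regions with a summit numbered 125, 124 and 99 in AD/- and 118, 117 and 128 in null. The means were 116 ± 14.7 and 121 ± 6.08 (SD, n = 3 each), and 124.5 in AD/- without library 3, so the order of the means rested on that library. Oas1a and Ifi44 had no region, and the other members had from 1 (Xaf1) to 10 (Trim25).

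No region around a member was present in all 3 AD/- libraries and absent from all null libraries, beside 0.179% of all regions. The reverse held for 1 region, beside 0.418% of all regions. It lay inside Rsad2, with summits at 26444214 to 26444262 of chromosome 12, 1495 bp from the gene end opposite the promoter printed above. It stood at percentiles of 23.8, 13.8 and 15.0 in null libraries 1, 2 and 3, and the nearest AD/- summit lay 12196 bp away. With lists of equal length this call was lost, and a region of Parp14, 1 of 124 around members (0.806%), was then present only in AD/-, beside 0.2998% of all regions in that setting.

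Among the 86 regions found in all 6 libraries, none ranked higher in every AD/- library than in every null library, beside 0.766% of all such regions, and 2 ranked higher in every null library (2.33%), beside 5.56%. Those 2 were the Eif2ak2 gene end and a region 9454 bp outside Ifi35. The latter stood at 83.2, 83.0 and 82.8 in AD/- and 83.5, 85.3 and 85.6 in null, so the closest libraries were less than 1 percentile point apart. The highest-ranking regions near members did not differ in this way. They were the region near Eif2ak2 given above, a region 6115 bp outside Ifi35 at 98.7 to 99.6, and a region 10694 bp outside Parp9 at 95.7 to 98.3. Regions were assigned to members by distance alone, and whether these lie at the ends of other genes was not tested.

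The promoters share features of sequence. The members were chosen by name as interferon-stimulated genes, so a high share with the response element may come with the choice itself. Promoter windows of 250 bases before to 50 after a start site were found for 27 members (32 windows) and for 17274 protein-coding genes. Oas2, Usp18, Dhx58, Zbp1, Parp9, Parp14 and Rtp4 had no entry. The response element core occurred in 14 of the 27 members (51.9%), beside 3.98% of all genes with a window. The gamma-activated site core, searched as TTCNNNGAA on both strands, occurred in 7 (25.9%), beside 9.02%. The members' windows were also poor in CpG dinucleotides, with a median of 4.5 per window, beside 13 over all windows and 21 over windows of genes with a gene-end summit in all 6 libraries. Their median GC content was 51.2%, beside 56.7%.

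Few promoters poor in CpG were open in these libraries, and a larger share of the members' were. A summit within 1 kb of a start site was present in all 6 libraries for 21 of the 27 members (77.8%), beside 55.2% of the 17274 genes. Among genes with at most 5 CpG, a limit chosen after the values were seen, the counts were 9 of 13 members (69.2%) and 371 of 5203 genes (7.13%). Above 5 CpG they were 12 of 14 members (85.7%) and 75.9% of genes. Open start sites at CpG-poor promoters included Trim21, with 3 CpG, Gbp2 and Gbp3, with 2 each, and Ifit1, with 4. Their ranks differed widely. Sp100, Oasl2 and Samd9l were also among them, at median percentiles of 25.5, 26.6 and 45.2, beside 87.3 for Trim21. The counts of open start sites per library were 23, 23 and 21 in AD/- and 23, 22 and 23 in null, so this feature was shared by the genotypes.

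**Figure D4:**
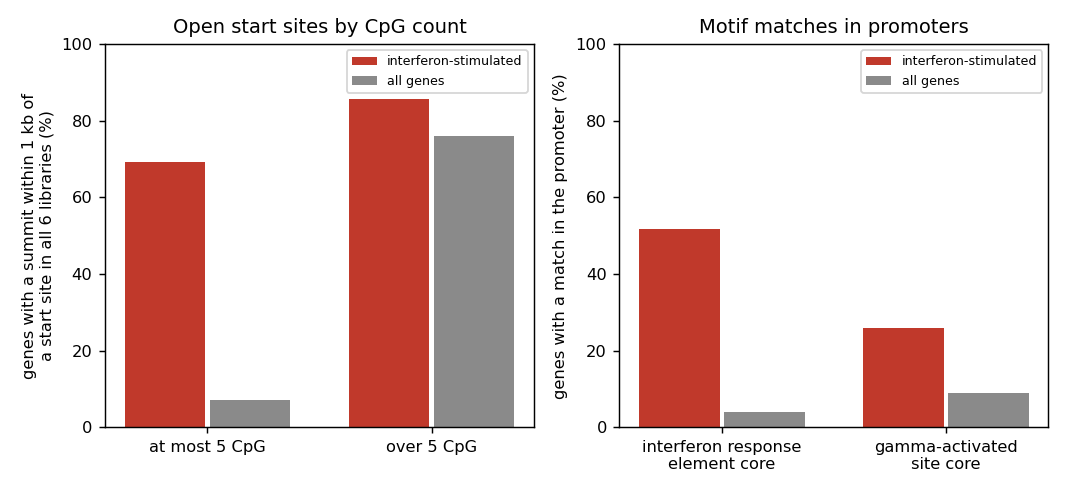
Left, the share of genes in percent with a summit within 1 kb of a start site in all 6 libraries, by the number of CpG in the promoter window, and right, the share in percent with a match to each motif core, with interferon-stimulated genes in red (27 genes) and all genes with a promoter window in grey (17274). The red bar stands at 69.2% beside 7.13% for CpG-poor promoters and at 51.9% beside 3.98% for the response element core.

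The genes that carry the interferon signal were looked at beside their targets. Of 33 listed receptors, kinases, transcription factors, sensors and interferons, 31 matched a protein-coding gene, and 25 of these had a gene-end summit in all 6 libraries, with a median percentile of 91.1, beside 72.9 for the members and 89.3 for all genes of that kind. The ranks spread widely, from Socs1, a feedback inhibitor, at a median of 98.8 to Tlr7, a receptor for single-stranded RNA, at 54.5, and Adar, Cgas, Sting1 and Socs3 also had medians below the members' 72.9. Stat2 ranged from 90.6 to 97.8 and Irf9 from 86.9 to 91.4. Ifnb1, which encodes interferon beta, and Tlr3, a receptor for double-stranded RNA, had none in any library. Ifng, Ifnlr1, Tlr9 and Irf7 varied between libraries. Irf7, the factor that amplifies interferon production, was listed at 71.5, 76.8 and 71.8 in AD/- and at 75.7 in null library 3. In null libraries 1 and 2 its nearest summit lay 1262 and 1268 bp from the gene end, at a percentile of 73.0 in each. In the libraries that list it, the nearest summit lay 25 to 67 bp from the end. Only the nearest summit of each library was looked at. Whether 1 summit was called at different places or 2 separate summits exist was not tested.

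Of the 25, 5 had a higher and 20 a lower mean percentile in AD/-. None was separated with AD/- higher and 2 were separated with null higher, beside the 1.01% and 5.31% of all genes given above. Tbk1, a kinase that activates IRF3, stood at 92.8, 93.2 and 90.2 in AD/- and 93.5, 93.6 and 94.0 in null. Adar, which edits double-stranded RNA and restrains the sensors, stood at 55.6, 57.3 and 49.8 in AD/- and 61.9, 59.2 and 64.0 in null. Both had an adjusted p of 1 (exact permutation test, Benjamini-Hochberg over 11385 genes).

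Summits at marker genes were counted to check the labelled tissue. All 10 thymocyte markers had a gene-end summit in every library. Of 10 dendritic or myeloid markers, 4, 4 and 2 had one in AD/- and 4, 5 and 4 in null, while Siglech, Csf1r, Itgax, Lyz2 and Adgre1 had none in any library. Bst2 is on that list and among the members. Of 7 thymic epithelial markers, 3, 4 and 4 had one in AD/- and 5, 5 and 4 in null, with none for Krt5 and Krt8. Of 6 B-cell markers 2, and of 4 endothelial and mesenchymal markers 1, had one in each library. The shares were 33.3% for B-cell markers, 33.3% in AD/- and 43.3% in null for dendritic or myeloid markers and 25% for endothelial and mesenchymal markers, below the 55.8% and 56.4% of all genes, and 52.4% in AD/- and 66.7% in null for epithelial markers. The part of these cells in the openness of the interferon-stimulated genes was not tested.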

How the data were processed

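ATAC-seq summits were analysed in 6 thymus libraries, 3 per genotype, grouped by the genotype label and numbered in the order of deposition. The authors deposited 1 summit list per library, so peaks were called per sample, and each summit carries a score, taken here to be −log10 of a q-value because the lowest scores were 1.30 to 1.39. The score is the authors' own value and was used only to rank summits within a library. The submitters' processing notes name MACS2 2.1.2, Picard 2.9.0, Bowtie2 2.3.4.2, Trim Galore 0.4.5 and GRCm38. Their roles and settings, any read shifting and the handling of duplicates are not given in the sources used here. Read depth is unknown.

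From these lists, windows of 250 bp on either side of each summit of chromosomes 1 to 19 and X were merged where they overlapped, giving regions (pandas 2.3.3 in Python 3.11.15). For each of 21631 protein-coding genes of a RefSeq table on GRCm38.p6, the best-scoring summit within 1 kb of either end was taken, because the table gives no strand. Percentiles were compared by an exact permutation test, two-sided, over all 20 relabellings of the libraries (SciPy 1.17.1), whose smallest p is 0.1, with Benjamini-Hochberg adjustment (statsmodels 0.14.6) over genes with a summit in all 6 libraries. The scripts were tested on simulated data. Promoter windows and strands came from a RefSeq table on GRCm38.p6, and where 766 pairs of windows on opposite strands overlapped, all 766 were reverse complements. Figures were drawn with matplotlib 3.10.9.

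The members and the lists of pathway genes and markers were chosen with earlier results of these data known. Values per library were given for members whose state differed between libraries, with a genotype-specific region, with separated percentiles, with the 4 highest or 4 lowest median percentiles, or with no gene-end summit, and other members were given as ranges unless they carry a printed promoter or share a summit with such a member. Alternatives were distances of 500 bp and 2 kb, the start site alone, a score of at least 5, equal list lengths, extensions of 100 and 500 bp, 10 and 50 kb around genes, a log2 score, and leaving out each library. The values of 1 pathway gene are not reported here.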

Additional observations from a re-analysis of the deposited data

How the results depend on the processing

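The difference in the mean number of members with a gene-end summit (AD/- minus null, 1.0) was 0.333 with a score of at least 5, 1.67 with lists of equal length and -0.333 with the start site alone, and from 0.667 to 1.33 when single libraries were left out. The difference in regions per library, -5.0, was -10.7 with a score of at least 5 and turned to 2.67 with equal lengths. It ranged from -9.5 to 3.5 over left-out libraries, with 3.5 without AD/- library 3. Members separated with AD/- higher (0) numbered 1 with equal lengths (4.31% of all genes were so separated), 1 with the log2 of the score over the library median (Oas2; 0.299% of all genes), and 0 to 7 over left-out libraries (1.36% to 10.1% of all genes). Those with null higher (1) numbered 0 on the log2 scale (3.30% of all genes) and 1 to 6 over left-out libraries (6.36% to 22.4%). Regions found only in AD/- (0) numbered 1 with equal lengths (0.2998% of all regions), 2 within 50 kb (near Zbp1 and Isg20; 0.179%) and 0 to 3 over left-out libraries (0.322% to 1.08%), with 3 both without AD/- library 3 and without null library 3. Regions found only in null (1) numbered 0 with equal lengths (0.363% of all regions) and 1 to 4 over left-out libraries (0.558% to 1.84%), with 4 without null library 3. The Eif2ak2 difference kept its sign in all 11 alternatives, and its separation was lost on the log2 scale. Leaving out a library leaves fewer libraries to separate, so more features are then separated by construction, and the causes of the other shifts were not tested. No paired analysis was possible because the labels give no replicate numbers. Read depth is unknown, so a missing summit means only that none was called.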

Other observations

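Relatives of some members, and genes of other families linked to interferon, were listed after the data were seen. The Ifit, Oas, Gbp and Ifitm families hold members. The Ifi200, Ifi27 and immunity-related GTPase families hold none. Relatives of the Parp, Trim and Herc members were not listed. Of the 44 genes listed, none of them a member, 16 (36.4%) had a gene-end summit in all 6 libraries. A further 18 (40.9%) had one in none and 10 (22.7%) in some, beside 52.6%, 40.7% and 6.70% of all genes. The 16 are not 16 separate openings. Ifit1bl2 had the same percentiles as the member Ifit1, and Ifi27 the same as Ifi27l2a, so each pair shared its summit. Of 8 guanylate-binding genes, 6 were open in all 6 libraries, at ranks that ran from Gbp7 at 71.8 to 83.2 and Gbp4 at 70.6 to 78.3 down to Gbp10 at 27.5 to 58.5 and Gbp9 at 12.4 to 43.4, while Gbp2b had summits in 2 libraries and Gbp6 in none. Of the immunity-related GTPases, which act on pathogen vacuoles, Irgm1, Irgm2 and Igtp were open in all 6 libraries, Irgm1 at 64.0 to 75.4. Of the 11 genes of the Ifi200 family, sensors of DNA among them, Ifi209 and Ifi208 were open in all 6 libraries and 5 in none. Among the 6 other Oas genes only Oas1c was open, in all 6 libraries at 78.3 to 83.2, and the other 5 had no gene-end summit. Of the 6 other Ifitm genes, 5 had none and Ifitm2 had one in 5 libraries, at 2.06 to 30.9.

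Mx1 and Mx2, classic antiviral GTPase genes that the gene table lists as transcribed pseudogenes and that therefore were not among the protein-coding genes tested, both had gene-end summits in all 6 libraries. Mx1 stood at percentiles of 39.1, 36.8 and 20.6 in AD/- libraries 1, 2 and 3 and 33.4, 26.2 and 32.0 in the null libraries. Mx2 stood at 67.9, 72.2 and 60.8 in AD/- and 65.6, 61.0 and 69.2 in null. For both genes the values of the genotypes overlapped.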
